A study of Mus musculus with 24 samples.

Results

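Quadriceps muscle of delEx44 mice that had run was compared with that of younger, sedentary delEx44 mice. The comparison took 5 of the study's 24 libraries by their labels, 2 of run and 3 of sedentary muscle. The delEx44 mouse is on the C57BL/6 background and has a deletion of exon 44 in the dystrophin gene Dmd, which makes it a model of Duchenne muscular dystrophy. Both groups carry the deletion. Run mice were 8 weeks old and had been driven downhill for 1 month, every other day, at 12 m/min on a decline of 15 degrees. Sedentary mice were 4 weeks old. Running and 4 weeks of growth came together, so their parts cannot be told apart. The same run and sedentary groups existed for corrected delEx44 mice, which had received AAV9 vectors for a guide RNA and for SpCas9 (8e13 vg/kg each) on postnatal day 4, and for WT mice, again 2 against 3 libraries each.

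Dystrophin ties the cytoskeleton of a muscle fibre to the basement membrane through a complex in the fibre membrane. Fibres without it tear during contraction, above all when they lengthen under load as in downhill running, and are rebuilt by satellite cells while macrophages clear debris and fibroblasts lay down matrix. In mice without dystrophin a wave of necrosis and regeneration sets in around weaning, the same weeks in which normal muscle leaves its growth programme and takes on adult protein isoforms. Whole muscle was sequenced, so fewer cells of a type and less RNA per cell cannot be told apart in any result here.

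Dmd lies at chrX:82948870-85206141, plus strand, of GRCm38, and exon 44 of its 79-exon transcript at chrX:84022265-84022412 (148 bases). Dmd had 40.7 and 41.8 CPM in run and 36.1, 41.8 and 41.2 CPM in sedentary muscle (log2 0.05 ± 0.09, adjusted p = 0.67), with overlapping groups. These counts cover all exons of Dmd together, so the deletion of exon 44 was not checked and genotype rests on the labels. All 10 skeletal fibre genes used as a tissue check were detected, and Ckm and Acta1, muscle creatine kinase and skeletal actin, had at least 14625 CPM in each of the 5 libraries, where CPM is a gene's count scaled to a common library size with edgeR's TMM factors. Depth was 35759272 and 34365763 gene counts in run and 36223003 to 38090522 in sedentary libraries. The 50 most abundant genes took 35.5% and 37% of the counts in run libraries and 29.9% to 33.9% in sedentary ones. Y-linked genes were expressed in all 5 libraries. Outside this comparison, run WT replicate 1 had Y-linked genes near 0, and sedentary WT replicate 3 stood apart from the other sedentary WT libraries on the second principal component; both enter the shared estimate of the spread.

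Run and sedentary delEx44 muscle differed in a large share of the genes measured. Of 15013 genes tested, 5355 passed an adjusted p of 0.05 in edgeR's quasi-likelihood test (35.7%), 2457 higher in run muscle (16.4%) and 2898 lower (19.3%). The median change over all genes was −0.04 on the log2 scale. A smaller set of 968 genes (6.45%) also changed by at least 1 on the log2 scale, and most of these fell: 243 were higher (1.62%) and 725 lower (4.83%). Without run replicate 1 the count was 3111, and run replicate 1 stood apart from run replicate 2 in several genes named below, which are marked where the call depended on it. Members of a list that rose or fell are those past the threshold, and their counts are to be read against the 16.4% and 19.3% of all genes. Where a list is given with 1 direction, no member passed edgeR's threshold in the other. Log2 values are given ± SE. Many named genes were picked for their small p in these same libraries, so remarks that their groups did not overlap add no support. No overlap was seen in 58.8% of all genes tested.

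**Figure D1:**
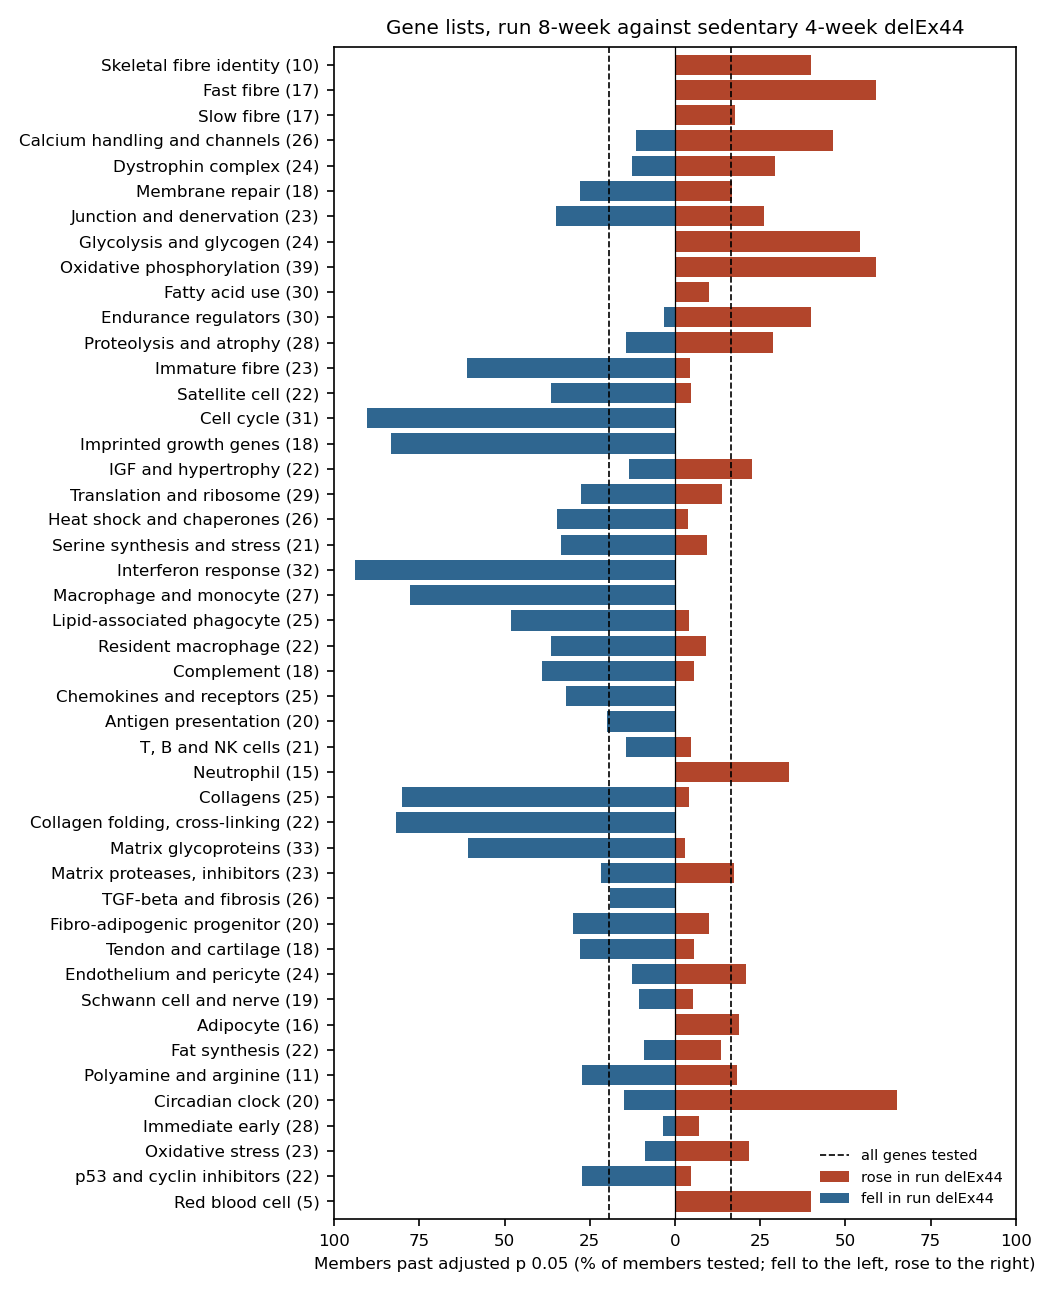
Percent of the tested members of each gene list that rose (to the right) or fell (to the left) in run 8-week against sedentary 4-week delEx44 quadriceps, with the number of members tested in parentheses. Dashed lines mark the 16.4% and 19.3% of all genes tested. Interferon, cell cycle, imprinted and collagen lists lie almost wholly on the left, fast fibre and glycolysis lists wholly on the right, and calcium and clock lists mostly on the right with 3 falls each.

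Genes of the fast fibre's contractile and calcium machinery were higher in run muscle. Of 17 fast fibre genes tested, 10 rose (median log2 0.43), and of 26 calcium handling and channel genes 12 rose and 3 fell (median 0.24), with a single fall without run replicate 1. Ryr1, the calcium release channel of the sarcoplasmic reticulum, had 2308 and 2512 CPM in run and 1017, 1159 and 1159 CPM in sedentary muscle (log2 1.12 ± 0.11, adjusted p = 2.9e-05). Its partner in the transverse tubule, the voltage sensor subunit Cacna1s, had 748 and 735 CPM in run and 366, 457 and 429.7 CPM in sedentary muscle (log2 0.83 ± 0.10, adjusted p = 0.0001). In both genes every run library lay above every sedentary library, a pattern that 26.1% of all tested genes showed. The calcium pump of fast fibres, Atp2a1, had 26242 and 29320 CPM in run and 12834, 16263 and 15701 CPM in sedentary muscle (log2 0.90 ± 0.12, adjusted p = 0.00023). Actn3, the actinin of fast Z-discs, had 7109.6 and 6934 CPM in run and 3492, 4349 and 4685 CPM in sedentary muscle (log2 0.75 ± 0.13, adjusted p = 0.00093). The Z-disc protein Myoz1 rose by log2 0.76, and in these genes too no sedentary library reached the run range. The muscle chloride channel Clcn1 (log2 0.87 ± 0.10), the sodium channel Scn4a (log2 0.82 ± 0.11) and Jsrp1, a protein of the calcium release site (log2 0.62 ± 0.08), moved the same way. Myosin genes were less uniform. Myh4, the fastest myosin, had 28157 and 38274 CPM in run and 19353, 26048 and 25709 CPM in sedentary muscle (log2 0.49 ± 0.16, adjusted p = 0.03), and its call was lost without run replicate 2 (log2 0.25, adjusted p = 0.34), without sedentary replicate 1 (log2 0.36, adjusted p = 0.09) and with only the 5 delEx44 libraries in the fit (log2 0.52, adjusted p = 0.098). Myh1, another fast myosin, was at 4366 and 4258 CPM in run and 4703, 4236 and 5313 CPM in sedentary muscle, with overlapping groups (log2 −0.14 ± 0.22, adjusted p = 0.66).

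Slow fibre genes had a median of log2 0.34, and 3 of 17 rose (0 without run replicate 1, 1 without run replicate 2, 1 without sedentary replicate 2 and 1 without sedentary replicate 3). The slow light chain Myl3 had 119 and 58.4 CPM in run and 19.7, 13.2 and 17.3 CPM in sedentary muscle (log2 2.40 ± 0.79, adjusted p = 0.039). The slow myosin Myh7 had 191 and 92.3 CPM in run and 31.4, 32.9 and 27.9 CPM in sedentary muscle (log2 2.20 ± 0.77, adjusted p = 0.049). Run replicate 1 was well above run replicate 2 in both, and neither gene passed without run replicate 1 (adjusted p = 0.22 and 0.27) or without any other single delEx44 library. Both were also lost with no filter on low counts (adjusted p = 0.055 and 0.069). Sln, sarcolipin, an inhibitor of the calcium pump, had 60.7 and 39.9 CPM in run and 24.7, 9.74 and 12.8 CPM in sedentary muscle (log2 1.68 ± 0.36, adjusted p = 0.0049). It did not pass without run replicate 1 (log2 1.35, adjusted p = 0.052) or with only the 5 delEx44 libraries in the fit (log2 1.71, adjusted p = 0.056). Tcap, telethonin, which caps titin at the Z-disc, had 2966 and 1821 CPM in run and 399.9, 578 and 665 CPM in sedentary muscle (log2 2.13 ± 0.30, adjusted p = 0.00043), the largest change among the 10 fibre identity genes, of which 4 rose. The others that rose were Ckm (log2 0.63 ± 0.12), Cox6a2 (log2 0.65 ± 0.09) and Acta1 (log2 0.44 ± 0.11), the last of which did not pass without run replicate 2 (adjusted p = 0.062) or with the 5 delEx44 libraries alone (adjusted p = 0.066). The summed level of this list was 82990.0 and 81065 CPM in run and 57423, 64982 and 72616 CPM in sedentary muscle.

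The genes of the membrane complex that binds dystrophin changed in part. Of 24 tested, 7 rose and 3 fell (median log2 0.05), and without sedentary replicate 1 the falls numbered 1. Cmya5, the costamere protein myospryn, had 1739 and 2132 CPM in run and 887, 1054 and 1020 CPM in sedentary muscle (log2 0.97 ± 0.12, adjusted p = 0.00015). Sgca, alpha-sarcoglycan of the complex itself, had 216 and 224 CPM in run and 128, 153 and 147 CPM in sedentary muscle (log2 0.62 ± 0.09, adjusted p = 0.00024). For both the run libraries lay above the sedentary ones. The matrix partner Col6a1 fell (log2 −0.81 ± 0.13). Utrn, the dystrophin relative utrophin, was at 74.1 and 69.3 CPM in run and 72, 69.3 and 60.7 CPM in sedentary muscle (log2 0.09 ± 0.08, adjusted p = 0.42), and the groups overlapped. Of 18 genes linked to membrane repair 3 rose and 5 fell. The annexin Anxa5 (log2 −0.65 ± 0.13), the dysferlin relative Myof (log2 −0.57 ± 0.10) and the annexin partners S100a10 (log2 −0.57 ± 0.12) and S100a11 (log2 −0.79 ± 0.14) fell, while the muscle protease Capn3 rose (log2 0.41 ± 0.10).

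The fetal and the adult subunit of the acetylcholine receptor moved in opposite directions. Chrng, the fetal gamma subunit, had 8.56 and 5.04 CPM in run and 37.5, 14.1 and 17.7 CPM in sedentary muscle (log2 −1.77 ± 0.39, adjusted p = 0.0048). Chrne, the adult epsilon subunit, had 21.9 and 24.4 CPM in run and 14.9, 16.3 and 13.9 CPM in sedentary muscle (log2 0.62 ± 0.09, adjusted p = 0.00027). Chrna1, shared by both forms and raised outside the junction in denervated or regenerating fibres, had 53.4 and 50.4 CPM in run and 169, 86.8 and 102 CPM in sedentary muscle (log2 −1.20 ± 0.22, adjusted p = 0.002). The groups did not overlap in any of the 3, and sedentary replicate 1 was the highest library for Chrng and Chrna1. The call of Chrng was lost with only the 5 delEx44 libraries in the fit (log2 −1.73, adjusted p = 0.085). Ache, the enzyme that breaks down acetylcholine at the junction, had 78.2 and 75.9 CPM in run and 48.2, 49.3 and 49.6 CPM in sedentary muscle (log2 0.65 ± 0.07, adjusted p = 5.4e-05). In the whole list of 23 junction genes 6 rose and 8 fell, with falls numbering 3 without run replicate 1, 2 without run replicate 2, 5 without sedentary replicate 1 and 5 with only the 5 delEx44 libraries in the fit.

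Of 24 glycolysis and glycogen genes 13 rose (median log2 0.31). Pygm, the phosphorylase that releases glucose from muscle glycogen, had 6567 and 6958 CPM in run and 3349.6, 3916 and 4211 CPM in sedentary muscle (log2 0.82 ± 0.12, adjusted p = 0.00032). Slc2a4, the insulin- and contraction-driven glucose transporter, had 667 and 547 CPM in run and 283, 306 and 352 CPM in sedentary muscle (log2 0.95 ± 0.13, adjusted p = 0.0002). No sedentary library reached the run range in these 2 genes. Of 39 oxidative phosphorylation genes 23 rose (median 0.31). Cox6a2, a muscle subunit of cytochrome oxidase, had 619 and 603 CPM in run and 373, 395 and 399.6 CPM in sedentary muscle. Ndufv1 of complex I rose by log2 0.55. The rises in this list numbered 7 without run replicate 1, 14 without sedentary replicate 1, 13 without sedentary replicate 2 and 15 with only the 5 delEx44 libraries in the fit. Of 30 genes of fatty acid use 3 rose (0 without run replicate 1 and 7 without run replicate 2). Pdk4 and Ucp3, which respond to fasting and exercise within hours, differed widely between the run libraries. Pdk4, a brake on glucose oxidation, had 510.1 and 36.2 CPM in run and 248, 252 and 513 CPM in sedentary muscle. Ucp3, an uncoupling protein of mitochondria, had 102 and 16.2 CPM in run and 54.1, 62 and 75.9 CPM in sedentary muscle. Neither passed (adjusted p = 0.82 and 0.91), but without run replicate 1 both did (log2 −3.22, adjusted p = 0.026 and log2 −1.98, adjusted p = 0.038), and without run replicate 2 both were higher by estimate (log2 0.60 and log2 0.68). Of 30 regulators of endurance, 12 rose and 1 fell, among them the histone deacetylase Hdac5 (log2 0.74 ± 0.09), the acetyltransferase Kat2b (log2 0.49 ± 0.07) and Sox6, a repressor of slow fibre genes (log2 0.47 ± 0.08). Hif1a, the oxygen-sensing transcription factor, was the member that fell (log2 −0.61 ± 0.09), and without sedentary replicate 1 the falls numbered 3. Ppargc1a, a driver of mitochondrial biogenesis, was at 109 and 33.4 CPM in run and 34.3, 56.2 and 48.4 CPM in sedentary muscle and did not pass (adjusted p = 0.29), though it did without run replicate 2 (log2 1.24, adjusted p = 0.021).

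**Figure D2:**
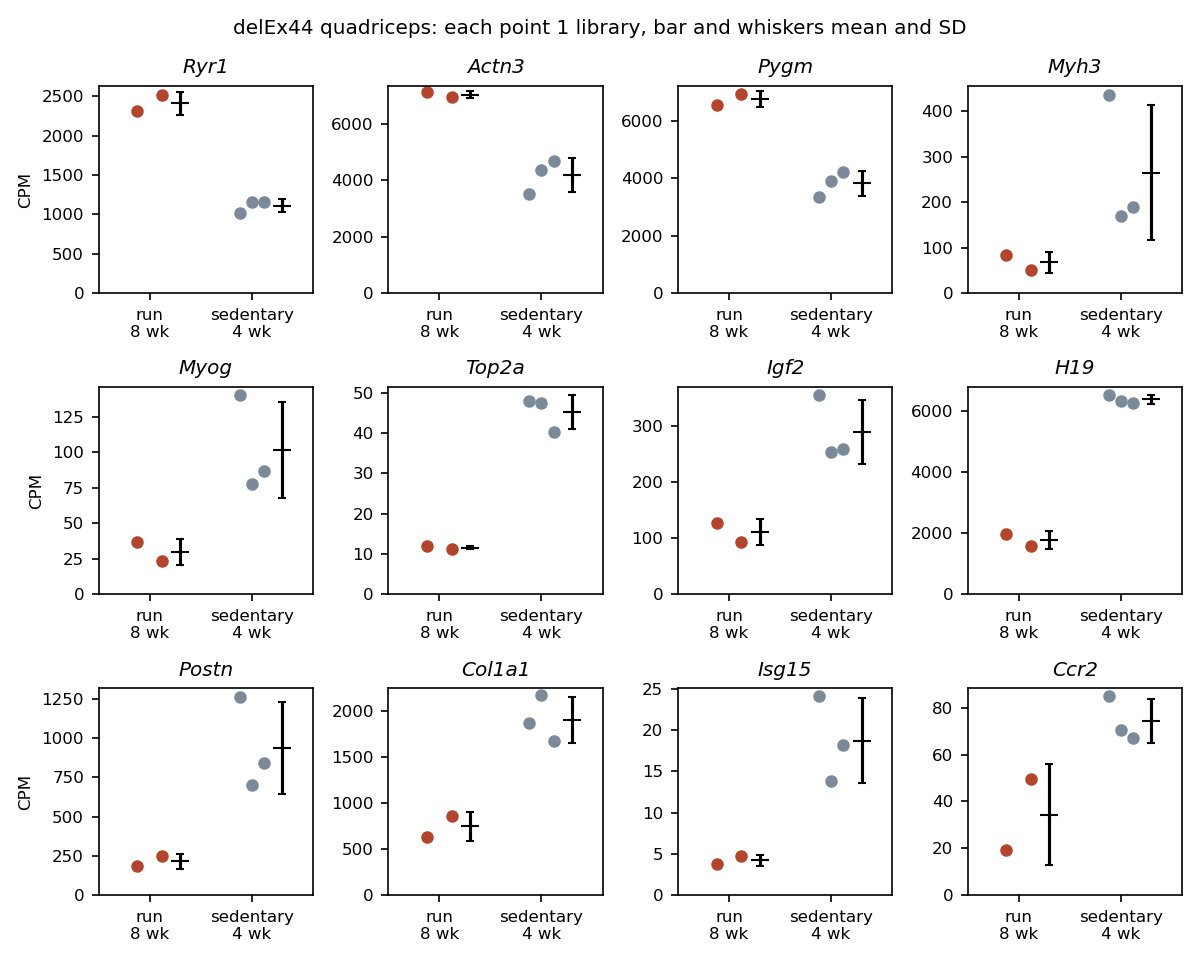
CPM of 12 genes in each of the 2 run and 3 sedentary delEx44 libraries, with run muscle on the left, each axis starting at 0, and the group mean with SD as a bar with whiskers. Ryr1, Actn3 and Pygm are higher in run muscle, and Myh3, Myog, Top2a, Igf2, H19, Postn, Col1a1, Isg15 and Ccr2 lower, with no overlap between the groups in any panel. Of all genes tested, 58.8% showed no overlap.

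Markers of young and regenerating fibres were lower in run muscle. Of 23 tested, 14 fell and 1 rose (median log2 −0.80). The rise did not pass without any one of run replicates 1 and 2 and sedentary replicates 1 and 2. Myh3, embryonic myosin, had 84.5 and 51 CPM in run and 436, 169 and 189.7 CPM in sedentary muscle (log2 −1.97 ± 0.40, adjusted p = 0.0041). Myog, myogenin, the factor that commits myoblasts to fuse and differentiate, had 36.4 and 23.3 CPM in run and 140.0, 77.7 and 86.6 CPM in sedentary muscle (log2 −1.77 ± 0.38, adjusted p = 0.0055). Tmem8c, the fusion protein myomaker, had 15.1 and 6.84 CPM in run and 55.9, 26.1 and 32.2 CPM in sedentary muscle (log2 −1.79 ± 0.43, adjusted p = 0.0083). The groups did not overlap, but the spread was wide, with sedentary replicate 1 highest in all 3. Without run replicate 2 Myog and Tmem8c did not pass (log2 −1.48, adjusted p = 0.052 and log2 −1.34, adjusted p = 0.065), and with only the 5 delEx44 libraries in the fit Myh3 and Tmem8c did not (log2 −1.94, adjusted p = 0.069 and log2 −1.76, adjusted p = 0.072). The estimate of Tmem8c was log2 −2.47 without run replicate 1. The falls in the list numbered 9 without run replicate 1, 8 without run replicate 2 and 7 with only the 5 delEx44 libraries in the fit. Cdh15, M-cadherin of myoblasts, was steadier at 19.1 and 21.3 CPM in run and 35, 26.6 and 33.2 CPM in sedentary muscle (log2 −0.64 ± 0.12, adjusted p = 0.0014).

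Among satellite cell genes, 8 of 22 fell and 1 rose (median log2 −0.26). Without run replicate 2 the falls numbered 3, and the rise was absent without run replicate 1, sedentary replicate 2 or sedentary replicate 3. Pax7, the factor that defines satellite cells, was at 3.74 and 4.96 CPM in run and 5.23, 5.29 and 4.52 CPM in sedentary muscle (log2 −0.21 ± 0.21, adjusted p = 0.48), and the groups overlapped apart from a low run replicate 1. Megf10, which keeps satellite cells dividing, had 5.27 and 3.38 CPM in run and 12.4, 12.7 and 12 CPM in sedentary muscle (log2 −1.51 ± 0.19, adjusted p = 0.00012). Sdc3, a surface proteoglycan of these cells, had 68.4 and 77 CPM in run and 144, 116 and 109.7 CPM in sedentary muscle (log2 −0.76 ± 0.13, adjusted p = 0.00088). Both were lower in each run library than in any sedentary one.

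Most cell cycle genes fell. Of 31 tested, 28 fell, with a median of log2 −1.44, and all 31 had both run libraries below all sedentary ones, a pattern that 32.7% of all tested genes showed. Top2a, the topoisomerase of replicating cells, had 11.8 and 11.3 CPM in run and 48, 47.5 and 40.4 CPM in sedentary muscle (log2 −1.97 ± 0.35, adjusted p = 0.0019). Ccnb1, cyclin B1 of mitotic entry, had 1.77 and 1.58 CPM in run and 7.01, 6.52 and 5.44 CPM in sedentary muscle (log2 −1.92 ± 0.31, adjusted p = 0.00057). Cdc20, which triggers chromosome separation, had 2.85 and 2.21 CPM in run and 6.91, 9.1 and 8.45 CPM in sedentary muscle (log2 −1.69 ± 0.26, adjusted p = 0.00045). No run library came near the sedentary range in these 3 genes. Kif20a, a kinesin of cell division, fell by 1.85 on the log2 scale, and so did genes outside the list that work in mitosis, Cep55 (log2 −2.37 ± 0.34), Cenpf (log2 −2.30 ± 0.38) and Prr11 (log2 −2.15 ± 0.22). Many mitotic genes carry CCAAT boxes, the binding motif of the factor NF-Y, close to their start. In RefSeq promoters of GRCm38.p6 (250 bases before the start, both strands searched for CCAAT), 20 of the 24 list members that matched a promoter held at least 1 box (83.3%), against 37.5% of all 27025 promoters. The other motif searched for this list, the cell cycle homology region TTTGAA, was in 7 of the 24 (29.2%), against 18.3% of all promoters. It is not marked in the sequences shown. The last 150 bases before the start are shown for Ccnb1 (chr13:100786487-100786636, minus strand) and Cdc20 (chr4:118437344-118437493, minus strand), since both fell and each holds 2 boxes there, in capitals. A match of letters is a description and shows no binding.
Ccnb1: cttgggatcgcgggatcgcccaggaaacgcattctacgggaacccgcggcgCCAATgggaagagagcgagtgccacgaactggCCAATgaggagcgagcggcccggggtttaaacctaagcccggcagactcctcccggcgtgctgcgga
Cdc20: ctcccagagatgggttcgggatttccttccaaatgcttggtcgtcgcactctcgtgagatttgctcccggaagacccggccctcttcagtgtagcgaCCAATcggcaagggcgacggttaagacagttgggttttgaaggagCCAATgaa

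Imprinted genes of the growth network, which are active in the young animal and silenced as growth slows, were lower in run muscle. Of 18 tested, 15 fell (median log2 −1.10). The H19 RNA (chr7:142575529-142578143, minus strand) had 1966 and 1567 CPM in run and 6527, 6337 and 6256 CPM in sedentary muscle (log2 −1.85 ± 0.21, adjusted p = 7.5e-05). Its neighbour Igf2, the fetal growth factor (chr7:142650766-142666816, minus strand), had 127 and 93.6 CPM in run and 356, 254 and 259 CPM in sedentary muscle (log2 −1.39 ± 0.18, adjusted p = 0.00023). Cdkn1c, a brake on the cell cycle further along chromosome 7 (chr7:143458339-143461050, minus strand), had 59.9 and 44.8 CPM in run and 125, 150.4 and 121 CPM in sedentary muscle (log2 −1.34 ± 0.14, adjusted p = 3.8e-05). In all 3 the run libraries lay below every sedentary one. On chromosome 12, Dlk1 (chr12:109452823-109463336, plus strand), a membrane protein of growing tissue, had 3.71 and 8.08 CPM in run and 16.4, 16.2 and 14.6 CPM in sedentary muscle (log2 −1.42 ± 0.27, adjusted p = 0.002), and without run replicate 2 its estimate was log2 −2.08. The noncoding RNA Meg3 (chr12:109541001-109571726, plus strand) had 67 and 76 CPM in run and 130.3, 193 and 156 CPM in sedentary muscle (log2 −1.16 ± 0.13, adjusted p = 8.2e-05). Peg10 on chromosome 6 had 3.87 and 4.43 CPM in run and 16.1, 10.5 and 11.8 CPM in sedentary muscle (log2 −1.62 ± 0.17, adjusted p = 4.8e-05). Outside the list Nrk, a kinase known from the placenta, was among the deepest falls at 0.632 and 1.14 CPM in run and 6.21, 8.22 and 4.74 CPM in sedentary muscle (log2 −2.85 ± 0.35, adjusted p = 0.00012).

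The insulin-like growth factor list was mixed, with 5 rises and 3 falls among 22, with rises numbering 3 without run replicate 1 and 3 without sedentary replicate 1. Igf1, the growth factor itself, had 51.3 and 65.7 CPM in run and 177, 151 and 178 CPM in sedentary muscle (log2 −1.53 ± 0.25, adjusted p = 0.0011), while Ghr, the growth hormone receptor, rose by log2 0.52. Muscle and general forms of translation proteins moved in opposite directions. Rpl3l, the muscle form of ribosomal protein L3, had 485 and 424 CPM in run and 256, 277 and 297 CPM in sedentary muscle (log2 0.72 ± 0.10, adjusted p = 0.00021). Its general form Rpl3 had 94.9 and 92.9 CPM in run and 163, 129 and 143 CPM in sedentary muscle (log2 −0.63 ± 0.13, adjusted p = 0.0026). Eef1a2, the elongation factor of mature muscle, had 1084 and 1113 CPM in run and 659.9, 733 and 793 CPM in sedentary muscle (log2 0.59 ± 0.10, adjusted p = 0.00069). The general form Eef1a1 had 775 and 717 CPM in run and 1296, 1004 and 1069 CPM in sedentary muscle (log2 −0.59 ± 0.13, adjusted p = 0.0033). In both pairs the muscle form was higher and the general form lower in every run library. These are related sequences, and how reads shared between them were counted is not given in the sources used here. Of the 29 translation genes 4 rose and 8 fell. Of 26 heat shock and chaperone genes 9 fell and 1 rose (0 without run replicate 2). Among the falls were Hspa5, Hsp90b1 and Pdia4, which fold proteins in the endoplasmic reticulum, at log2 −0.86, −1.02 and −1.08.

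Interferon-stimulated genes had the highest percent of falls of any list, 93.8%, with 90.3% for the cell cycle list. Of 32 tested, 30 fell, with a median of log2 −1.47. All 32 had both run libraries below all sedentary ones, against 32.7% of all genes. Isg15, a ubiquitin-like protein induced by interferon, had 3.71 and 4.68 CPM in run and 24.1, 13.8 and 18.2 CPM in sedentary muscle (log2 −2.15 ± 0.41, adjusted p = 0.0023). Mx1, an antiviral GTPase, had 1.5 and 3.46 CPM in run and 18.1, 8.95 and 11 CPM in sedentary muscle (log2 −2.36 ± 0.40, adjusted p = 0.0011; without run replicate 2, log2 −3.08). Oas3, an enzyme that senses double-stranded RNA, had 2.21 and 2.16 CPM in run and 15.1, 9.47 and 11.4 CPM in sedentary muscle (log2 −2.46 ± 0.55, adjusted p = 0.0053). Sedentary replicate 1 was the highest library for all 3, and the other sedentary libraries were still well above both run libraries. Usp18 (log2 −1.46 ± 0.22), which curbs interferon signalling, and the RNA sensor Dhx58 (log2 −1.84 ± 0.28) fell. Zbp1, a sensor of nucleic acids, and Ms4a4c, a membrane protein of immune cells, were among the 10 deepest falls at log2 −2.33 and −2.83. Without sedentary replicate 1 the list had 29 falls, and without run replicate 1 it had 23. Macrophages express many of these genes; their marker transcripts were lower in the same run libraries, with a summed level of 1576 and 1497 CPM in run and 3384, 2317 and 2412 CPM in sedentary muscle, and their part in the interferon values was not tested.

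The interferon-stimulated response element was searched as GAAA, any 2 bases and GAAA again, on both strands. In the promoters described above, 13 of the 23 matched members held them on one strand or the other (56.5%), against 3.46% of all 27025 promoters. The last 150 bases before the start are shown for Isg15 (chr4:156200819-156200968, minus strand) and Oas3 (chr5:120777660-120777809, minus strand), from GRCm38.p6, because they carry the motif close to the start. Capitals mark it, and in Isg15 overlapping matches run together. As above, the letters alone show no binding.
Isg15: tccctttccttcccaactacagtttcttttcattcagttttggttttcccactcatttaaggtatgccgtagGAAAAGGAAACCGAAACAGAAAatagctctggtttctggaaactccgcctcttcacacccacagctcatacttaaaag
Oas3: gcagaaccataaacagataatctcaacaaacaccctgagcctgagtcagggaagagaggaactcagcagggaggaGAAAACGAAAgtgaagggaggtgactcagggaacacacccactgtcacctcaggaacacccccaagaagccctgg

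Macrophage transcripts were lower in run muscle. Of 27 macrophage and monocyte genes 21 fell (median log2 −0.90). Cd53, a leukocyte membrane protein, had 24.8 and 26.2 CPM in run and 59.5, 47.3 and 54.3 CPM in sedentary muscle (log2 −1.07 ± 0.21, adjusted p = 0.0021). Fcer1g, the signalling chain of Fc receptors, had 30 and 35.2 CPM in run and 80.6, 61.5 and 67.1 CPM in sedentary muscle (log2 −1.10 ± 0.20, adjusted p = 0.0017). The small membrane protein Lst1 of myeloid cells had 2.4 and 3.65 CPM in run and 11.8, 6.86 and 8.32 CPM in sedentary muscle (log2 −1.57 ± 0.26, adjusted p = 0.00075). No run library reached the sedentary range in these genes. Ccr2, the receptor that draws monocytes into tissue, had 19.1 and 49.6 CPM in run and 84.9, 70.8 and 67.1 CPM in sedentary muscle (log2 −1.11 ± 0.34, adjusted p = 0.025), and its call was lost without run replicate 1 (log2 −0.58, adjusted p = 0.12), without sedentary replicate 1 (log2 −1, adjusted p = 0.075) and in the fit of the 5 libraries (log2 −1.08, adjusted p = 0.14). Without run replicate 2 its estimate was log2 −1.96. The falls in the list numbered 9 without run replicate 1, 11 without run replicate 2 and 13 without sedentary replicate 1.

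Genes of lipid-laden phagocytes, macrophages that take up debris, fell in part. Of 25 tested, 12 fell and 1 rose, and the falls numbered 6 without run replicate 2. The lysosomal proteases Lgmn and Ctsb fell. Lgmn had 129 and 165 CPM in run and 341, 263 and 307 CPM in sedentary muscle (log2 −1.05 ± 0.15, adjusted p = 0.00029). Ctsb had 949 and 931 CPM in run and 1590.1, 1243 and 1387 CPM in sedentary muscle (log2 −0.58 ± 0.11, adjusted p = 0.0016). Plin2, a coat protein of lipid droplets, fell too (log2 −0.90 ± 0.17). The following 3 well-known genes of this state did not pass. Gpnmb, a lysosomal glycoprotein, was at 235 and 129 CPM in run and 239.6, 206 and 202 CPM in sedentary muscle (log2 −0.24 ± 0.31, adjusted p = 0.57). The elastase Mmp12 was at 74.3 and 42.5 CPM in run and 42.4, 37.4 and 26.6 CPM in sedentary muscle (log2 0.72 ± 0.30, adjusted p = 0.082). The groups overlapped for Gpnmb, and for Mmp12 run replicate 2 was level with the highest sedentary library, with a call without run replicate 2 (adjusted p = 0.035) and by limma-voom (adjusted p = 0.025). Spp1, osteopontin, was at 112 and 69.9 CPM in run and 246, 301 and 289 CPM in sedentary muscle; its groups did not overlap, but the spread shared by all groups was wide (log2 −1.62 ± 1.29, adjusted p = 0.36), and it passed without sedentary WT replicate 3 (log2 −1.62, adjusted p = 0.0024) and with the 5 delEx44 libraries alone (log2 −1.59, adjusted p = 0.0042). Resident macrophage genes had 8 falls and 2 rises among 22 (4 falls without run replicate 1). Mrc1, the mannose receptor, had 71.2 and 109 CPM in run and 165, 179 and 157 CPM in sedentary muscle (log2 −0.89 ± 0.18, adjusted p = 0.0027), and Folr2, a folate receptor, fell by 0.89 on the log2 scale. Of 18 complement genes 7 fell (4 without run replicate 1 and 4 with only the 5 delEx44 libraries in the fit) and 1 rose. C1qb and C1qc, chains of the initiating C1q complex, fell by 1.05 and 0.99 on the log2 scale and the receptor C3ar1 fell by 1.26, while C7 of the membrane attack complex rose with 13.3 and 16.6 CPM in run and 6.14, 4.86 and 5.54 CPM in sedentary muscle (log2 1.44 ± 0.32, adjusted p = 0.0053).

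Of 25 chemokine and receptor genes 8 fell (3 falls without run replicate 1). The falls with the smallest p included 2 interferon-induced ligands. Cxcl9 had 4.08 and 3.02 CPM in run and 19.5, 11 and 15.8 CPM in sedentary muscle (log2 −2.12 ± 0.37, adjusted p = 0.0013). Cxcl10 had 1.16 and 1.91 CPM in run and 9.76, 4.52 and 4.71 CPM in sedentary muscle (log2 −2.05 ± 0.42, adjusted p = 0.0029). Of 20 antigen presentation genes, 4 fell (1 without run replicate 1, 2 without run replicate 2 and 2 without sedentary replicate 1), all from the class I route, among them B2m, the class I light chain, with 299 and 251 CPM in run and 666, 447 and 470.5 CPM in sedentary muscle (log2 −0.94 ± 0.22, adjusted p = 0.0067; without run replicate 2, adjusted p = 0.06). The 4 falls were 20% of the antigen presentation list, near the 19.3% of all genes, and no change of the class I route is drawn from them. The class II chain H2-Aa was at 174 and 131 CPM in run and 172, 137 and 124 CPM in sedentary muscle, within overlapping ranges (adjusted p = 0.75).

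Neutrophil granule genes, in contrast, were higher in run muscle. Of 15 neutrophil genes 5 rose, and their summed level was 262 and 115 CPM in run and 41.5, 30.7 and 58.5 CPM in sedentary muscle. DESeq2 called 1 rise, limma-voom called 8 rises and 1 fall, and edgeR's rises numbered 0 without run replicate 1, 3 without run replicate 2, 0 without sedentary replicate 1, 0 without sedentary replicate 2, 1 without sedentary replicate 3 and 8 with only the 5 delEx44 libraries in the fit and 10 without sedentary WT replicate 3, whose own neutrophil sum was 298 CPM. In the other genotypes the sum was 186 and 98 CPM in run and 12.9, 8.01 and 9.5 CPM in sedentary corrected muscle, and 221 and 156 CPM in run and 5.92, 5.16 and 298 CPM in sedentary WT muscle. Ngp, a granule protein of immature neutrophils, had 46.2 and 12.5 CPM in run and 0.0638, 0.136 and 0.195 CPM in sedentary muscle, which rested on 1755 and 451 counts in run and 3, 6 and 8 counts in sedentary muscle. Ltf, lactoferrin, had 18.9 and 6.15 CPM in run and 0.0638, 0.0681 and 0.0732 CPM in sedentary muscle, and Camp, an antimicrobial peptide gene, had 17 and 4.43 CPM in run and 0.0213, 0.0227 and 0.0488 CPM in sedentary muscle. Sedentary libraries were near 0 in these genes, and run replicate 1 was far above run replicate 2, so no fold change is given. Their adjusted p-values were 0.029, 0.025 and 0.025. None of the 3 passed without run replicate 1 (adjusted p = 0.13, 0.11 and 0.13) or without any single sedentary library. S100a8, a calcium-binding protein of circulating neutrophils, was at 39.8 and 12.8 CPM in run and 4.87, 1.91 and 9.06 CPM in sedentary muscle and did not pass (adjusted p = 0.26; 0.021 without sedentary WT replicate 3 and 0.045 by limma-voom). The red cell membrane protein Slc4a1 moved with them at 18.5 and 4.35 CPM in run and 0.128, 0.114 and 0.0488 CPM in sedentary muscle (adjusted p = 0.03; 0.16 without run replicate 1, 0.0798 to 0.089 without any single sedentary library and 0.062 by limma-voom), while the adult globin genes are listed at 0 in all 5 libraries. Prg2, an eosinophil granule protein, had 6.32 and 3.85 CPM in run and 0.085, 0.0908 and 0.0488 CPM in sedentary muscle (adjusted p = 0.0082). Why the adult globin genes are at 0 is not known, so their counts say nothing about red cells in the samples. Whether marrow or blood in the tissue sample had a part in these values was not tested.

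**Figure D3:**
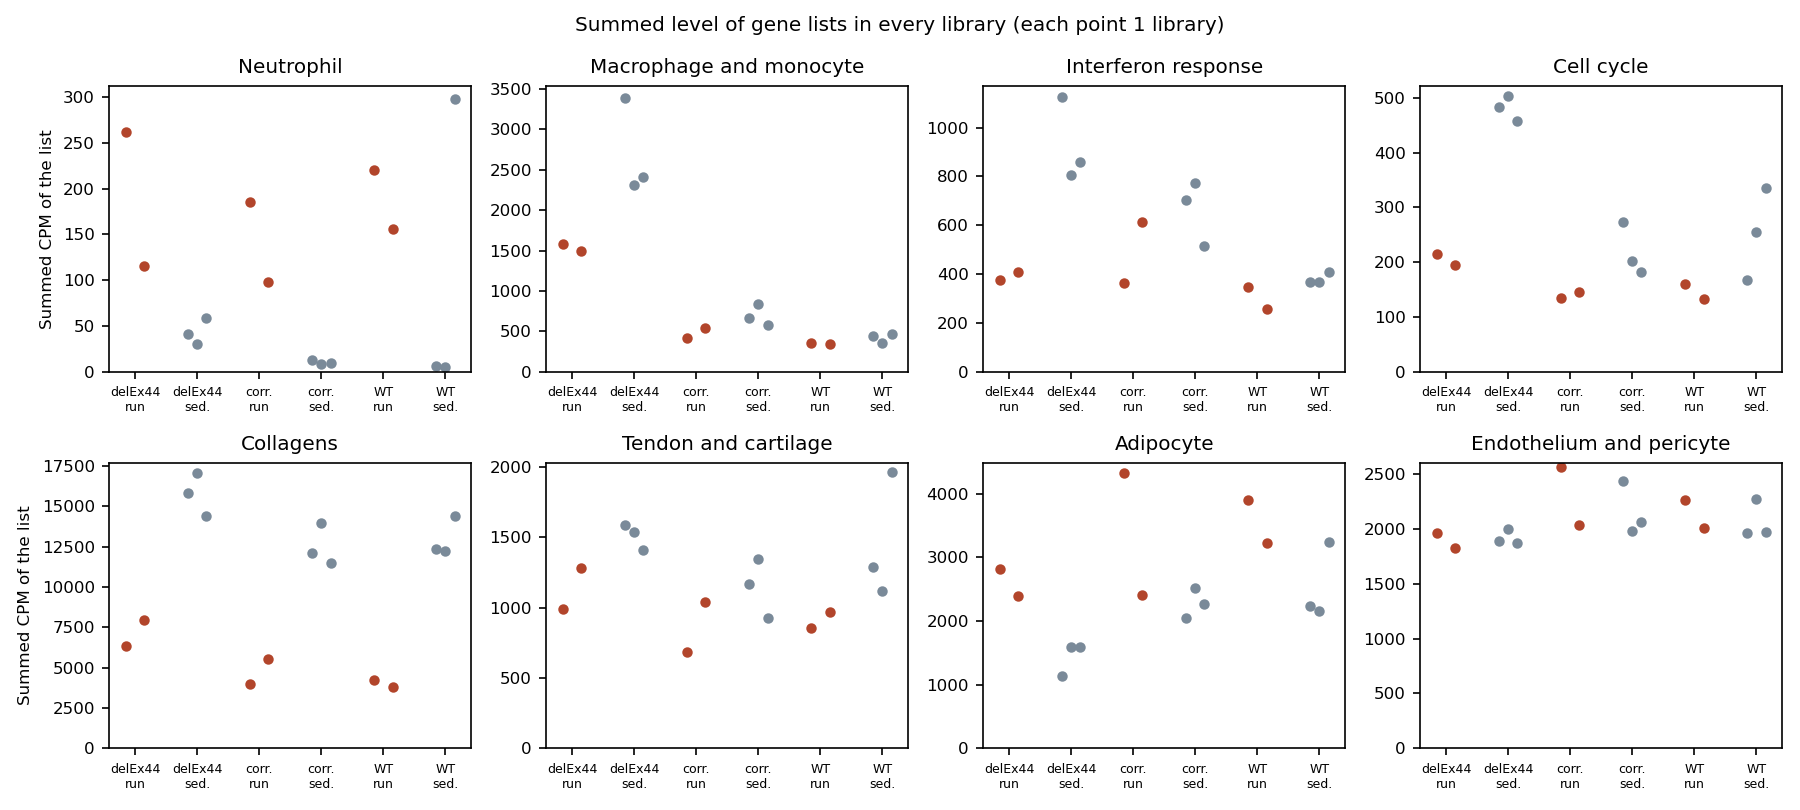
Summed CPM of 8 gene lists in each library, with run and sedentary libraries of delEx44, corrected and WT mice from left to right and each axis starting at 0. In delEx44, the neutrophil and adipocyte sums are higher in run than in sedentary libraries, the macrophage, interferon, cell cycle, collagen and tendon sums lower, and the endothelium sums overlap.

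The matrix programme was lower in run muscle. Of 25 collagen genes 20 fell and 1 rose (median log2 −0.88). Of 22 genes that fold and cross-link collagen 18 fell. Of 33 matrix glycoproteins 20 fell and 1 rose, the rise being absent without any single delEx44 library. Col3a1, a fibrillar collagen of young and repairing tissue, had 1807 and 2412 CPM in run and 5660, 5588 and 5112 CPM in sedentary muscle (log2 −1.37 ± 0.16, adjusted p = 9.6e-05). Col1a1, the main collagen of scar and tendon, had 636 and 862 CPM in run and 1872, 2174 and 1674 CPM in sedentary muscle (log2 −1.35 ± 0.24, adjusted p = 0.0014). Postn, periostin, a matrix protein of growth and repair, had 182 and 247 CPM in run and 1265, 699 and 842 CPM in sedentary muscle (log2 −2.12 ± 0.32, adjusted p = 0.0007). Run libraries were below every sedentary library in each. Fbn2, the fibrillin of developing microfibrils, was the deepest fall of all named genes at 1.32 and 1.11 CPM in run and 10, 13 and 9.03 CPM in sedentary muscle (log2 −3.13 ± 0.40, adjusted p = 0.00019). Eln, elastin, fell by 1.02 on the log2 scale, and Sparc, a collagen-binding protein, fell by 1.07. The cross-linking enzymes Lox and Loxl2 fell by 1.11 and 0.79, and the collagen chaperone Serpinh1 fell by 1.09. The proteoglycan Dcn, decorin, was at 1230.3 and 1046 CPM in run and 1261, 1163 and 1125 CPM in sedentary muscle and did not pass (adjusted p = 0.75), and its groups overlapped.

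Of 26 genes of TGF-beta signalling and fibrosis 5 fell (3 without sedentary replicate 1 and 3 with only the 5 delEx44 libraries in the fit), a share near the 19.3% of all genes. Tgfb1, the growth factor itself, was at 22.7 and 22.7 CPM in run and 30.8, 25.4 and 24.4 CPM in sedentary muscle (log2 −0.24 ± 0.12, adjusted p = 0.14). Wisp1, a secreted Wnt-induced protein, had 5.32 and 6.84 CPM in run and 17.4, 16.6 and 15.4 CPM in sedentary muscle (log2 −1.44 ± 0.27, adjusted p = 0.0017). Acta2, the actin of smooth muscle and myofibroblasts, fell by 0.87 on the log2 scale. Matrix proteases and inhibitors had 5 falls and 4 rises among 23, with falls numbering 1 without run replicate 1 and 9 with only the 5 delEx44 libraries in the fit and 10 by limma-voom, and rises 1 without run replicate 1 and 2 with only the 5 delEx44 libraries in the fit. Fibro-adipogenic progenitor genes had 6 falls and 2 rises among 20 (falls 1 without run replicate 1 and 2 without sedentary replicate 1; rises 0 without run replicate 1, 1 without run replicate 2, 1 without sedentary replicate 1, 1 without sedentary replicate 2 and 1 with only the 5 delEx44 libraries in the fit), and the defining receptor Pdgfra was at 102 and 92.5 CPM in run and 93, 101 and 94.3 CPM in sedentary muscle (adjusted p = 0.93). The summed level of this list was 908 and 884 CPM in run and 1026, 968 and 999 CPM in sedentary muscle. Some tendon genes fell with the collagens. Tnmd, tenomodulin of tendon cells, had 32.5 and 38.1 CPM in run and 113, 129.8 and 99 CPM in sedentary muscle (log2 −1.69 ± 0.26, adjusted p = 0.00065). Kera, the proteoglycan keratocan, had 35.2 and 35.4 CPM in run and 133, 149.7 and 111 CPM in sedentary muscle (log2 −1.90 ± 0.30, adjusted p = 0.00092). Comp, a cartilage and tendon matrix protein, was at 36 and 37.7 CPM in run and 41.6, 35.2 and 28.4 CPM in sedentary muscle (adjusted p = 0.9). In all, 5 of 18 tendon and cartilage genes fell and 1 rose (3 and 0 without run replicate 1), with a summed level of 989 and 1283 CPM in run and 1589, 1540.2 and 1411 CPM in sedentary muscle. Whether the amount of tendon in the samples had a part in the collagen values was not tested.

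Markers of other cell types in the muscle are to be read against the 35.7% of all genes that passed. Endothelial and pericyte genes had 5 rises and 3 falls among 24 (rises 0 without run replicate 1, 3 without sedentary replicate 1 and 3 without sedentary replicate 3; falls 1 without run replicate 1, 0 without run replicate 2 and 1 without sedentary replicate 2), and their sum was 1961 and 1828 CPM in run and 1889.9, 2001 and 1874 CPM in sedentary muscle. Pecam1, a junction protein of endothelial cells, was at 121 and 119 CPM in run and 123, 137 and 116 CPM in sedentary muscle (adjusted p = 0.72). Of 19 Schwann cell and nerve genes 16 did not pass, and of 21 T, B and NK cell genes 17 did not. Adipocyte genes summed to 2814 and 2390.4 CPM in run and 1139, 1586 and 1584 CPM in sedentary muscle, with 3 of 16 past the threshold (1 without run replicate 1, 1 without sedentary replicate 1 and 1 without sedentary replicate 2). Car3, carbonic anhydrase of fat and muscle, had 1496 and 1643 CPM in run and 547, 923 and 686 CPM in sedentary muscle (log2 1.13 ± 0.24, adjusted p = 0.0041). Adipoq, adiponectin made only by fat cells, was at 35.5 and 21.2 CPM in run and 12.9, 19.8 and 25.7 CPM in sedentary muscle (adjusted p = 0.64). Of 22 fat synthesis genes 3 rose and 2 fell (falls 0 without run replicate 1, 0 without sedentary replicate 1, 0 without sedentary replicate 2 and 1 with only the 5 delEx44 libraries in the fit). Srebf1, the factor that turns on lipid synthesis, had 77.4 and 116 CPM in run and 35.7, 48.4 and 32.9 CPM in sedentary muscle (log2 1.31 ± 0.19, adjusted p = 0.00038).

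Most clock genes differed between run and sedentary muscle. Of 20 tested, 13 rose and 3 fell (median log2 0.99), and without run replicate 1 the falls numbered 0. Dbp, a transcription factor driven by the clock, had 134 and 114 CPM in run and 10.9, 17.3 and 14.9 CPM in sedentary muscle (log2 3.11 ± 0.57, adjusted p = 0.0026). Ciart, a clock repressor, had 12.1 and 4.35 CPM in run and 0.404, 0.545 and 0.854 CPM in sedentary muscle (log2 3.78 ± 0.63, adjusted p = 0.0011; without run replicate 1, log2 2.86). Per2, a core repressor, had 33.6 and 16.5 CPM in run and 4.29, 4.11 and 6.35 CPM in sedentary muscle (log2 2.35 ± 0.48, adjusted p = 0.0038; without run replicate 1, log2 1.75). Run replicate 1 was above run replicate 2 in all 3, and both were far above the sedentary libraries. Cry2 (log2 1.40 ± 0.12), Tef (log2 1.15 ± 0.14) and Hlf (log2 1.97 ± 0.22) rose, while Arntl, the activator whose level peaks when those of its targets are low, had 8.22 and 14.5 CPM in run and 35.1, 30.9 and 29.9 CPM in sedentary muscle (log2 −1.50 ± 0.32, adjusted p = 0.0047; without run replicate 1, adjusted p = 0.055). The time of day of harvest is not given in the sources used here, and its part in these values was not tested. The E-box CACGTG, through which the clock activator works, is in 5 of 17 matched clock promoters (29.4%), against 6.86% of all 27025. Of the 13 matched clock genes that passed, 2 hold it. Ciart is shown because it had the largest rise of the list and carries 3 such boxes, in capitals, in the last 150 bases before its start (chr3:95882229-95882378, minus strand, of GRCm38.p6).
Ciart: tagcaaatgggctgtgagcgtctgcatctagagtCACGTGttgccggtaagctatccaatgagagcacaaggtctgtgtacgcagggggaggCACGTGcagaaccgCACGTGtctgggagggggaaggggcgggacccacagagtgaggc

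**Figure D4:**
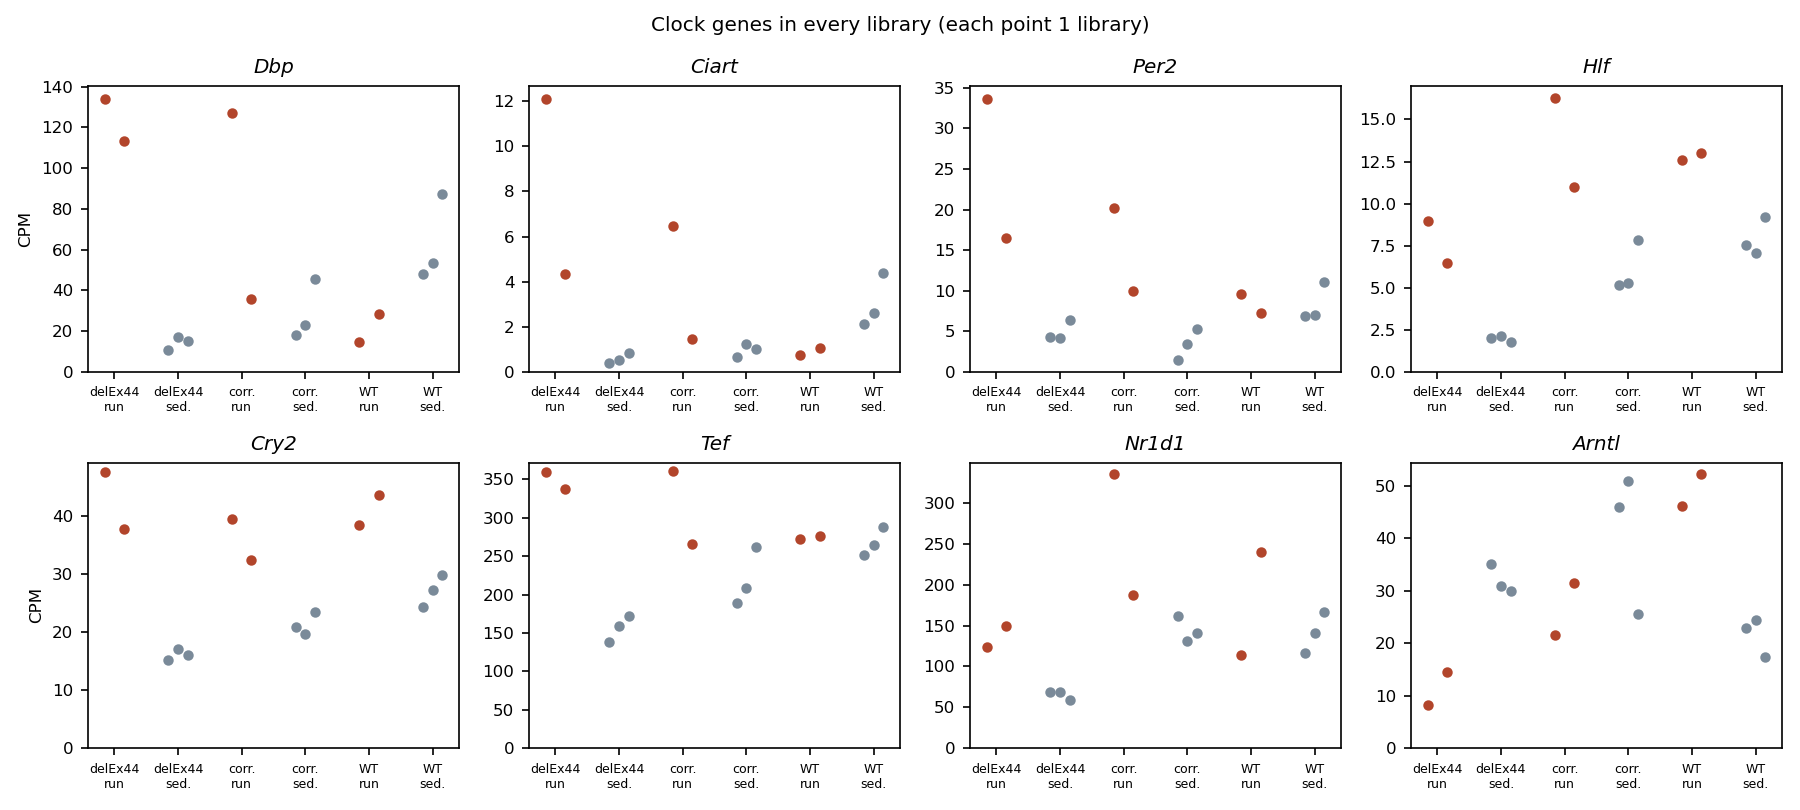
CPM of 8 clock genes in each library, with run and sedentary libraries of delEx44, corrected and WT mice from left to right and each axis starting at 0. In delEx44 muscle the run libraries of all genes but Arntl lie above the sedentary ones, and those of Arntl lie below.

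Genes that respond within minutes to activity showed no common change. Of 28 immediate early genes 2 rose (0 without run replicate 1, 7 without run replicate 2, 0 without sedentary replicate 1 and 1 without sedentary replicate 2) and 1 fell (0 without run replicate 1, 0 without sedentary replicate 1, 0 without sedentary replicate 3 and 2 with only the 5 delEx44 libraries in the fit). Fos, an early transcription factor, was at 25.4 and 26 CPM in run and 35.4, 16.9 and 14.2 CPM in sedentary muscle (adjusted p = 0.86). Nr4a1, a nuclear receptor induced by exercise, had 328 and 109 CPM in run and 83.2, 99.5 and 105 CPM in sedentary muscle (log2 1.19 ± 0.33, adjusted p = 0.018), and it did not pass without run replicate 1 (log2 0.18, adjusted p = 0.47), without sedentary replicate 1 (adjusted p = 0.063) or with the 5 libraries alone (adjusted p = 0.13). Atrophy and protein breakdown genes had 8 rises and 4 falls among 28 (rises 5 without run replicate 1; falls 2 without sedentary replicate 1, 2 without sedentary replicate 3 and 1 with only the 5 delEx44 libraries in the fit). Tfeb, a regulator of lysosome genes, had 67.5 and 69.7 CPM in run and 39.5, 39.2 and 42 CPM in sedentary muscle (log2 0.77 ± 0.07, adjusted p = 1.4e-05). Foxo4, a forkhead transcription factor, had 158 and 159.9 CPM in run and 79.4, 88 and 82.8 CPM in sedentary muscle (log2 0.93 ± 0.09, adjusted p = 3.2e-05). Both were nearly constant within each group. The atrophy ligase Trim63 was at 401 and 178 CPM in run and 156, 176 and 253 CPM in sedentary muscle and did not pass (adjusted p = 0.28). Oxidative stress genes had 5 rises and 2 falls among 23 (rises 3 without run replicate 1, 3 without sedentary replicate 1 and 3 without sedentary replicate 2; falls 0 without run replicate 1, 1 without run replicate 2, 1 without sedentary replicate 1, 1 without sedentary replicate 3 and 1 with only the 5 delEx44 libraries in the fit). Nqo1, a quinone reductase, had 20.7 and 25 CPM in run and 11.2, 10.9 and 11.2 CPM in sedentary muscle (log2 1.04 ± 0.09, adjusted p = 1.4e-05). Gpx3, a secreted peroxidase, had 287 and 268 CPM in run and 134, 113 and 131 CPM in sedentary muscle (log2 1.14 ± 0.14, adjusted p = 0.00012). Of 11 polyamine and arginine genes 2 rose and 3 fell. Smox, which oxidises the polyamine spermine, had 221 and 196 CPM in run and 59.2, 54.3 and 90 CPM in sedentary muscle (log2 1.62 ± 0.25, adjusted p = 0.00075). In the serine synthesis and stress list 7 of 21 fell (2 without run replicate 1 and 4 without sedentary replicate 1) and 2 rose (0 without run replicate 1, 1 without sedentary replicate 2 and 1 without sedentary replicate 3), among them Psat1, an enzyme of serine synthesis (log2 −1.41 ± 0.19).

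One cell cycle inhibitor rose. Cdkn2a (chr4:89274471-89294653, minus strand), which encodes the senescence-linked proteins p16 and p19, had 4.58 and 4.48 CPM in run and 1.36, 0.727 and 0.732 CPM in sedentary muscle (log2 2.26 ± 0.28, adjusted p = 0.00012), on 174 and 162 counts in run and 64, 32 and 30 counts in sedentary muscle. Both run libraries lay far above the highest sedentary one. In the list of 22 p53 targets and cyclin inhibitors 1 rose and 6 fell (falls 1 without run replicate 1, 3 without run replicate 2 and 3 without sedentary replicate 1). Cdkn1a, p21, was at 81.6 and 58.8 CPM in run and 116, 70.9 and 89.3 CPM in sedentary muscle (adjusted p = 0.55).

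Genes with the smallest p-values included several outside the lists. Ctxn3, a small membrane protein, had 124 and 92.8 CPM in run and 14.2, 13.3 and 12.8 CPM in sedentary muscle (log2 3.01 ± 0.19, adjusted p = 7.9e-06). Abcb4, a phospholipid transporter, had 108 and 113 CPM in run and 36.9, 44.9 and 42.7 CPM in sedentary muscle (log2 1.41 ± 0.10, adjusted p = 7.9e-06). Ppm1l, a phosphatase, had 111 and 117 CPM in run and 47.7, 54.4 and 51.7 CPM in sedentary muscle (log2 1.15 ± 0.08, adjusted p = 7.9e-06). In each of the 3 no sedentary library came near the run range. Ivd, an enzyme of leucine breakdown, had 143 and 133 CPM in run and 56.7, 66.4 and 59.2 CPM in sedentary muscle (log2 1.18 ± 0.09, adjusted p = 1e-05). Among falls, Pcsk5, a proprotein convertase, had 8.17 and 8.22 CPM in run and 17.3, 19.1 and 18 CPM in sedentary muscle (log2 −1.14 ± 0.10, adjusted p = 1.6e-05). Thy1, a surface marker of fibroblasts, had 29 and 30.9 CPM in run and 55.7, 65.5 and 58.3 CPM in sedentary muscle (log2 −1 ± 0.10, adjusted p = 3.2e-05), and Itgav, the integrin alpha-V chain, had 41.5 and 46.2 CPM in run and 70.4, 68.7 and 67.3 CPM in sedentary muscle (log2 −0.65 ± 0.07, adjusted p = 3.4e-05). The groups did not overlap in these 7 genes. They were named for their small p in the same libraries, so the separation adds no support.

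The same contrast was made in corrected and in WT mice, whose groups were also 2 run and 3 sedentary libraries. In corrected mice 3878 genes passed (25.8%) and in WT mice 4138 (27.6%). Median log2 changes of the imprinted list were −1.10 in delEx44, −1.01 in corrected and −1.06 in WT mice. For the collagen list they were −0.88 in delEx44, −1.19 in corrected and −1.26 in WT mice. Among the 23 young and regenerating fibre genes, medians were −0.80 in delEx44, −0.28 in corrected and −0.59 in WT mice. In that order 14, 5 and 10 of them fell and 1, 1 and 2 rose. Falls of cell cycle genes numbered 28 of 31 in delEx44, 11 in corrected and 15 in WT mice, with medians of −1.44, −0.80 and −1.10 in that order, and by the test of the difference described next 1 of 31 was called against either genotype. Over all genes the medians were −0.04 in delEx44, −0.01 in corrected and 0 in WT mice. Falls of interferon-stimulated genes numbered 30 of 32 in delEx44, 14 in corrected and 4 in WT mice, with medians of −1.47, −0.75 and −0.57. Falls of macrophage genes numbered 21 of 27, 6 and 0, with medians of −0.90, −0.54 and −0.12. Fast fibre genes had medians of 0.43 in delEx44, −0.07 in corrected and −0.23 in WT mice, and clock genes 0.99, 0.45 and 0.12. Whether a gene's change in delEx44 differed from that in another genotype was tested by an interaction term, and both such tests used the same 5 delEx44 libraries.

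**Figure D5:**
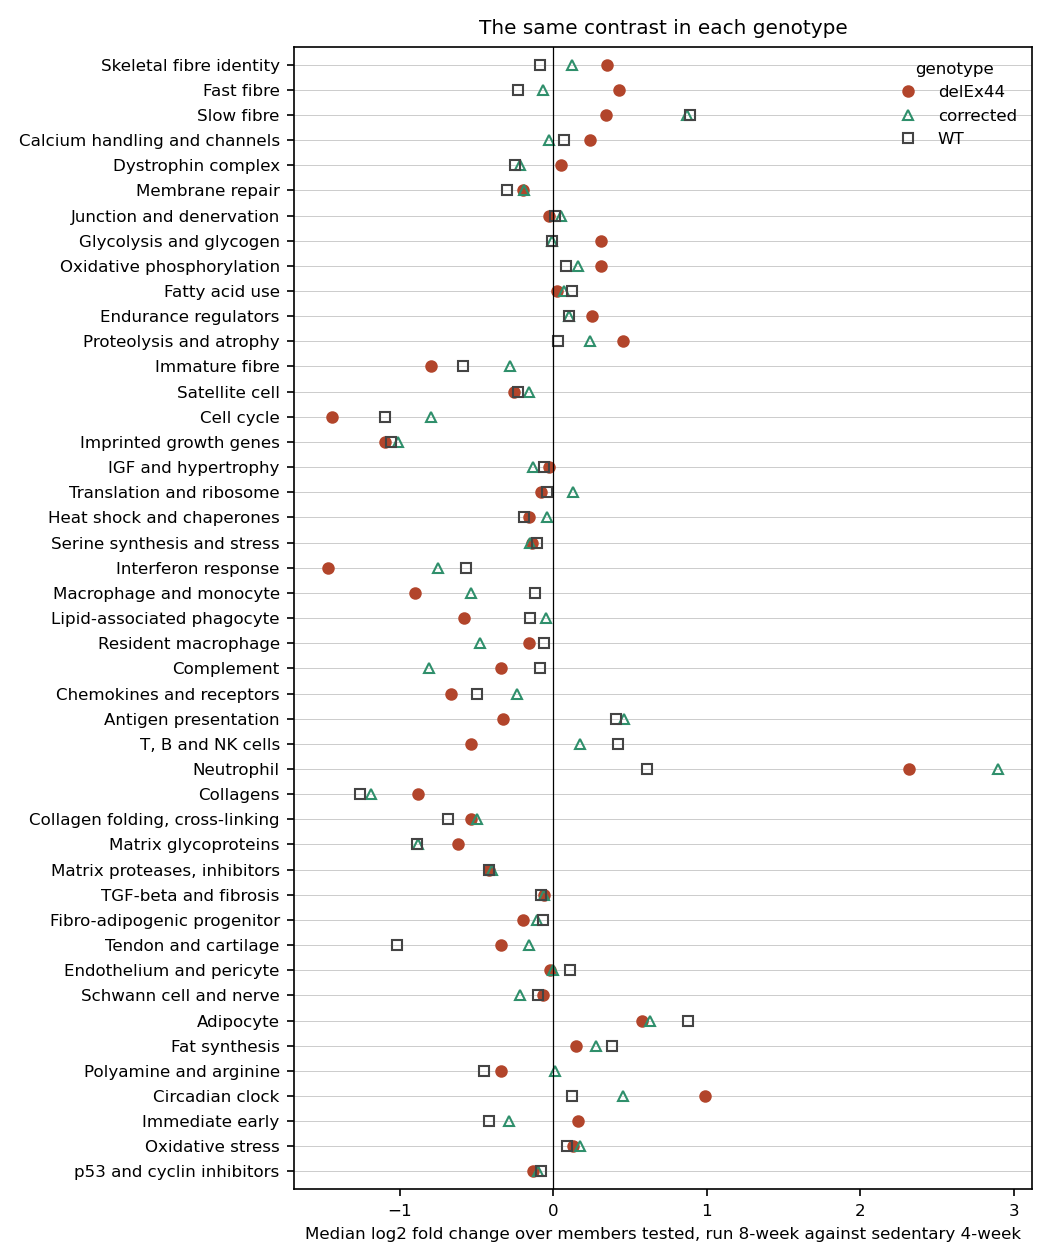
Median log2 fold change of each gene list, run 8-week against sedentary 4-week, in delEx44 (filled circles), corrected (open triangles) and WT mice (open squares). The imprinted and collagen medians lie well below 0 in all genotypes, while that of the fast fibre list is 0.43 in delEx44, −0.07 in corrected and −0.23 in WT mice.

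By that test 213 genes (1.42%) changed differently in delEx44 than in corrected mice, 152 more upward and 61 more downward, and 132 (0.879%) differently than in WT, 88 more upward and 44 more downward. Both counts moved with the libraries kept, mostly downward. Without sedentary delEx44 replicate 2 edgeR called 308 genes against corrected mice and 114 against WT. The count against WT was 117 without sedentary delEx44 replicate 3 and 167 without sedentary WT replicate 3. Against corrected mice edgeR called 14 and 111 genes without sedentary delEx44 replicates 1 and 3, 68 and 49 without run delEx44 replicates 1 and 2, 35, 31 and 19 without sedentary corrected replicates 1, 2 and 3, and 34 without run corrected replicate 1. Without run corrected replicate 3 it called 0, with 2243 at an unadjusted p under 0.05. Against WT it called 24 genes without sedentary delEx44 replicate 1, 25 and 84 without run delEx44 replicates 1 and 2, 43 and 25 without sedentary WT replicates 1 and 2, and 61 without run WT replicate 2. Without run WT replicate 1, the library with Y-linked genes near 0, it called 11, with 1739 at an unadjusted p under 0.05. With all libraries DESeq2 called 864 genes against corrected mice and 718 against WT, and limma-voom called 199 and 118.

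Interferon-stimulated and macrophage genes did not pass this test in edgeR, with 0 of 32 and 0 of 27 called against either genotype. At an unadjusted p under 0.05 there were 12 interferon-stimulated genes against corrected mice and 12 against WT, and 4 and 10 macrophage genes in the same order. DESeq2 called 6 and 4 interferon-stimulated and 2 and 4 macrophage genes, and limma-voom called 0 in each case. Fast fibre genes past edgeR's threshold numbered 3 against corrected mice and 6 against WT, all more upward in delEx44, where 1.01% and 0.586% of all genes were. Of the 17 tested, 12 against corrected mice and 14 against WT had an unadjusted p under 0.05. In the same order DESeq2 called 10 and 12 and limma-voom 3 and 7. In edgeR, Actn3 and Myoz1 did not pass against WT without sedentary WT replicate 1 (adjusted p = 0.065 and 0.101) or replicate 2 (adjusted p = 0.0527 and 0.0838). Nor did they pass without sedentary delEx44 replicate 1 (adjusted p = 0.0573 and 0.0871). Myoz1 was also lost without sedentary WT replicate 3 (adjusted p = 0.0558) or sedentary delEx44 replicate 2 (adjusted p = 0.0665). Without sedentary delEx44 replicate 3 both passed (adjusted p = 0.0285 and 0.0405).

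Dhrs7c and Rnf123 passed against WT whichever single library was left out, and were lost without both run WT replicate 1 and sedentary WT replicate 3 (adjusted p = 0.0568 and 0.0585). Dhrs7c, an enzyme of the sarcoplasmic reticulum, had 226 and 211 CPM in run and 128, 137 and 136 CPM in sedentary delEx44 muscle, against 252 and 251 CPM in run and 289, 266 and 282 CPM in sedentary WT muscle. Its change was log2 0.71 in delEx44 and −0.15 in WT (difference 0.86 ± 0.10, adjusted p = 0.006), and the adjusted p of the difference reached at most 0.029 when single libraries were left out. Rnf123, a ubiquitin ligase, had 154 and 175 CPM in run and 96.9, 102 and 97.4 CPM in sedentary delEx44 muscle, against 154 and 154 CPM in run and 156, 154 and 158 CPM in sedentary WT muscle (difference 0.76 ± 0.09, adjusted p = 0.006; at most 0.032). In both genes run delEx44 muscle stood above sedentary delEx44 muscle, while the change in WT did not pass (adjusted p = 0.14 and 0.85). Ctxn3 rose in both genotypes, by log2 3.01 in delEx44 and 0.59 in WT (difference 2.42 ± 0.27, adjusted p = 0.006; at most 0.028, and 0.0568 without both of those WT libraries). Dapp1, an adaptor of immune cell signalling, changed by log2 −0.55 in delEx44 and 1.13 in WT (difference −1.68 ± 0.23, adjusted p = 0.012; at most 0.043). The change of Dapp1 within delEx44 (adjusted p = 0.019) did not pass without run replicate 1 (adjusted p = 0.1) or run replicate 2 (adjusted p = 0.069). Against corrected mice Dhrs7c and Rnf123 differed by 0.67 and 0.66, and neither passed without run corrected replicate 3 (adjusted p = 0.086 and 0.086).

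Dmd itself had a change of log2 0.05 in delEx44 that did not pass and fell in corrected mice (log2 −0.80), where it had 95.5 and 88.8 CPM in run and 155, 156 and 172 CPM in sedentary corrected muscle (difference 0.86 ± 0.13, adjusted p = 0.018; adjusted p = 0.086 without run corrected replicate 3). Ryr1 had 2513 and 2289.5 CPM in run and 1917, 1886 and 2245 CPM in sedentary corrected muscle. In WT mice it had 2865 and 3215 CPM in run and 2609, 2220.1 and 2300.4 CPM in sedentary WT muscle. Its change in delEx44 was larger than in corrected mice by log2 0.86 ± 0.16, adjusted p = 0.028, and than in WT by 0.76 ± 0.16, adjusted p = 0.042. When 1 of 10 libraries was left out, the call against corrected mice held in 3 cases, with an adjusted p of up to 0.11 (without run corrected replicate 3), and that against WT in 1, with an adjusted p of up to 0.21 (without run WT replicate 1). Of 20 clock genes 4 changed more upward and 2 more downward in delEx44 than in WT. Dbp had 14.5 and 28.4 CPM in run and 48.2, 53.5 and 87.4 CPM in sedentary WT muscle, and the change of Ciart in WT was log2 −1.76. Their differences from WT (4.66 for Dbp, 5.54 for Ciart) passed in edgeR's main fit of all libraries. With the same libraries, that of Dbp did not pass in edgeR with no filter on low counts (adjusted p = 0.055). That of Ciart did not pass by limma-voom (adjusted p = 0.053). That of Dbp was lost whichever of the 10 libraries was left out (adjusted p up to 0.2), and that of Ciart held in 5 of the 10 cases (adjusted p up to 0.16), both highest without run WT replicate 1. Against corrected mice 0 clock genes passed in edgeR, with 5 of 20 at an unadjusted p under 0.05 and 2 called by DESeq2. Of all 15013 genes, 2763 had an unadjusted p under 0.05 in that test.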

How the data were processed

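RNA of mouse quadriceps was sequenced, 1 library per mouse. The values used were raw read counts per gene, deposited by the authors as 1 table of 15 libraries with 24062 genes. The submitters' processing notes name the mm10 genome and the tools edgeR, HTSeq, SAMtools 1.9, Trim Galore, STAR 2.7.2b and Bowtie2 2.3.4.3. The sources used here do not say which aligner gave the counts, nor the annotation or the strand setting, so antisense and overlapping genes cannot be told apart and near-identical copies are uncertain. The 5 records that name no gene, 27.4% to 34.2% of the deposited counts per library, were left out, and 30552867 to 38090522 gene counts per library were left.

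Groups came from the labels. In edgeR 4.0.16 (R 4.3.3), genes were filtered with filterByExpr, libraries scaled by TMM and all 15 libraries fitted with robust quasi-likelihood and 1 mean per group. P-values were adjusted by the Benjamini-Hochberg method over the 15013 genes tested, with a threshold of 0.05. They measure the spread between these libraries. The scripts were tested on simulated data. DESeq2 1.42.0, limma-voom (limma 3.58.1), other scalings, other filters and leaving out libraries were the alternatives. The members and the 47 gene lists were chosen with earlier results of these data known. Genes named in the text were fixed list members, the 10 largest rises and falls with a mean of at least 5 CPM and no overlap, the 10 smallest p per direction, up to 4 members of each list with the smallest p, and the 8 smallest p per direction of each difference between genotypes. Promoters were RefSeq sequences of GRCm38.p6, of which 250 bases before the start were searched and 150 printed. The 9 libraries of the 18-month groups were not analysed here.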

Additional observations from a re-analysis of the deposited data

Results flagged for a closer look

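The following named genes were singled out because their run against sedentary change in delEx44 differed from that in another genotype by an interaction test in edgeR's fit across all genes. Values are differences of log2 changes, delEx44 minus the other genotype. Against corrected mice (adjusted p = 0.014 to 0.037) the difference was upward for Dmd (0.86), Ryr1 (0.86), Cacna1s (0.78), Atp2a1 (0.94), Cmya5 (1.01), Sgca (0.62), Capn3 (0.68), Ache (0.54), Sox6 (0.54), Foxo4 (0.74), Ctxn3 (1.78), Abcb4 (0.83), Ppm1l (0.70), Ivd (0.89), Dhrs7c (0.67) and Rnf123 (0.66), and downward for Dapp1 (−1.13). None of these passed in edgeR without run corrected replicate 3, where their adjusted p was 0.086 to 0.13 and 2243 of all genes had an unadjusted p under 0.05.

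Against WT (adjusted p = 0.006 to 0.047) the difference was upward for Ryr1 (0.76), Cacna1s (0.74), Actn3 (1.00), Myoz1 (0.74), Loxl2 (0.73), Dbp (4.66), Ciart (5.54), Tef (1.12), Ctxn3 (2.42), Abcb4 (0.81), Dhrs7c (0.86) and Rnf123 (0.76), and downward for Peg10 (−1.29), Arntl (−2.68), Nqo1 (−0.62) and Dapp1 (−1.68). Of these, Ctxn3, Dhrs7c, Rnf123 and Dapp1 passed whichever of the 10 libraries was left out. Without both run WT replicate 1 and sedentary WT replicate 3, Dapp1 passed (adjusted p = 0.0133) and Ctxn3, Dhrs7c and Rnf123 did not (adjusted p = 0.0568, 0.0568 and 0.0585). Apart from Ctxn3, Dhrs7c, Rnf123 and Dapp1, none of the genes flagged against WT passed without sedentary WT replicate 2 (adjusted p = 0.0527 to 0.0863). Without sedentary WT replicate 3 alone, Dbp, Myoz1 and Nqo1 did not pass (adjusted p = 0.0555, 0.0558 and 0.0525). With all libraries, Peg10, Ciart and Nqo1 did not pass by limma-voom (adjusted p = 0.0867, 0.0532 and 0.0541). Dbp did not pass in edgeR with no filter on low counts (adjusted p = 0.0549).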

How the results depend on the processing

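The count of genes past the threshold in run against sedentary delEx44 muscle, 5355, was 4488 with only the 5 delEx44 libraries, 5426 by DESeq2 and 5684 by limma-voom, and from 3111 (without run replicate 1) to 5562 (without sedentary WT replicate 3) when 1 library was left out. The share of higher genes among those called was 45% to 52.4% under the alternatives. Of the list members 466 passed, and 290 (without run replicate 1) to 491 when 1 library was left out. Of the 153 genes named, 132 passed, and 123 to 134 under the alternatives. Differences between genotypes depended on the libraries. Against corrected mice the 213 genes were 864 by DESeq2 and from 0 to 308 when 1 library was left out. Against WT the 132 genes were 718 by DESeq2, from 11 to 167 when 1 library was left out, and 5 without both run WT replicate 1 and sedentary WT replicate 3, an alternative chosen after seeing the data, as were the list counts and the genotype differences of named genes under each alternative. The cause of these shifts was not tested. Within any 1 such fit, a smaller number of libraries cannot be told apart from which library was left out. At the same number of libraries the count still differed with the library left out. Against corrected mice it was 14, 308 and 111 without sedentary delEx44 replicates 1, 2 and 3.

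Estimates that changed sign when 1 delEx44 library was left out belonged to genes that did not pass with all libraries. On the log2 scale they ranged from −0.01 (without sedentary replicate 1) to 0.10 for Dmd, −3.22 to 0.60 for Pdk4 and −1.98 to 0.68 for Ucp3 (0.13 and 0.03 without sedentary replicate 3), −0.47 to 1.24 for Ppargc1a, −0.74 to 0.13 for Gpnmb, −0.13 to 0.27 for H2-Aa (−0.02 without sedentary replicate 3), −0.18 to 0.06 for Dcn, −0.05 to 0.08 for Pdgfra (−0.01 and 0 without sedentary replicates 1 and 3), −0.06 to 0.22 for Comp, −0.11 to 0.01 for Pecam1, −0.03 to 0.73 for Fos and −0.13 to 1.04 for Trim63. No paired analysis was possible because the run and sedentary delEx44 labels carry different numbers, none of them shared. With 2 run libraries, a difference that missed the threshold is not shown to be absent.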
